A study of Homo sapiens with 23 samples.

Results

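Small nucleolar RNA host genes are mostly long non-coding genes whose introns hold small nucleolar RNAs (snoRNAs), many of which guide chemical modification and cleavage of ribosomal RNA. The set described here holds every gene named SNHG followed by a number, together with GAS5, ZFAS1 and EPB41L4A-AS1, and comes to 31 of 61217 listed genes. Membership rested on names and the rule used no measured value, but the set was chosen with earlier results of these data known. Of these, 28 had an average level of 0 or more on the log2 CPM scale (log2 of reads scaled to library size), called measured here, in at least 1 of the 6 comparison tables, and 25 had it in all 6. SNHG22, SNHG27 and SNHG28 did not reach it in any table. The GENCODE 29 annotation used here lists SNHG32 as protein-coding, under the name C6orf48, and places no snoRNA gene inside SNHG27 or GAS5.

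The study sequenced poly(A)-enriched RNA of CaSki and C-33A, a pair of human cervical squamous carcinoma lines, and asked how 3 microRNA mimics change their gene expression. CaSki is labelled as positive for human papillomavirus and as derived from a metastasis, and C-33A as negative. Cells were transfected with 100 nM of a negative control or of one of 3 mimics, for miR-124-3p, for miR-23b-3p and for miR-218-5p. Of the 8 groups, 7 have 3 samples each, and 2 samples stand for miR-124-3p in C-33A. Each status is represented by 1 line. The titles number the samples of a line RB1 to RB3 across its groups, with no RB1 for miR-124-3p in C-33A, and do not say whether a number stands for a separate culture. The p-values therefore measure only the spread of these samples, part or all of which may be technical. In C-33A that spread is pooled over genes, so a gene's own replicates hardly enter its p-value. Values came as 6 tables of log2 fold changes of a mimic over the control of the same line. The 3 tables of a line share their control samples. Values per sample and total counts were not analysed here, so depth enters only through the average log2 CPM and the standard errors. Of the epithelial keratins, KRT5, KRT17, KRT8, KRT18 and KRT19 lay at an average log2 CPM between 8.06 and 12.1 in the authors' deposited tables of CaSki. In those of C-33A, KRT5, KRT17 and KRT19 lay between -3.36 and -1.68 and KRT8 and KRT18 between 0.63 and 0.88, as deposited. These keratins were thus low or near absent in C-33A, which is labelled as squamous carcinoma.

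After splicing, the host introns release snoRNAs that are bound by box C/D or box H/ACA proteins, while the joined exons become an RNA of little coding capacity. Several of these spliced RNAs are loaded onto ribosomes and removed by nonsense-mediated decay, a translation-dependent pathway that destroys RNAs with early stop codons. Many host genes begin, like ribosomal protein genes, with a C followed by a run of pyrimidines (a 5′ terminal oligopyrimidine or TOP tract), which couples translation to growth signals. GAS5, named for its rise in growth-arrested cells, is the best studied example. A mimic loads a microRNA into Argonaute, and pairing of the seed (bases 2 to 8) with a transcript lowers that transcript.

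The mature sequences of 2 of the mimics are shown because their seeds were searched for in the host transcripts. They are RefSeq entries of GRCh38.p14, with the seed in capitals. No seed search was made for miR-124-3p.
hsa-miR-23b-3p: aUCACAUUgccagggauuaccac
hsa-miR-218-5p: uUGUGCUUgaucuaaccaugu
Their seeds differ. The mature part of miR-23b-3p lies at chr9:95085265-95085287 (+), and miR-218-5p is encoded at chr4:20528299-20528319 (+) and chr5:168768211-168768231 (-).

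The first 25 bases of 7 host transcripts are shown as examples of the pyrimidine start, chosen because they carry it. Capitals mark the C and the unbroken run of C and T after it. All are read from GRCh38 at GENCODE 29 transcript starts, which are not always the principal one. GAS5, SNHG3, SNHG16 and SNHG29 have no such run at their RefSeq start. The start shown is that of 6 of 29 GAS5 transcripts, 1 of 3 of SNHG3, 2 of 17 of SNHG12, 2 of 8 of SNHG16, 3 of 23 of SNHG5, 2 of 10 of ZFAS1 and 2 of 30 of SNHG29.
GAS5: CTTTTCgaggtaggagtcgactcct
SNHG3: CCTTTTTggagacagattcgcagtg
SNHG12: CCTTTCTCCCCgccgcattcccggt
SNHG16: CTTTTCgaggtcggccgcgtggctg
SNHG5: CTTTTacgtcggccttcgcgagcgt
ZFAS1: CTTTCgcgtctgcggtgcccggagt
SNHG29: CTTTTCattcccgttgttatggagg
These starts lie at chr1:173867965-173867989 (-) for GAS5, chr1:28506043-28506067 (+) for SNHG3 and chr1:28581849-28581873 (-) for SNHG12. They lie at chr17:76557769-76557793 (+) for SNHG16, chr6:85678709-85678733 (-) for SNHG5, chr20:49278642-49278666 (+) for ZFAS1 and chr17:16439037-16439061 (+) for SNHG29.

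A C followed by at least 4 letters C or T stood at the RefSeq start of 7 of the 27 members in the promoter table (25.9%). The same was true of 46 of 62 ribosomal protein genes (74.2%) and of 1404 of all 27305 genes in that table (5.14%). With any GENCODE start counted, 15 of 31 members had such a run (48.4%), against 65 of 77 ribosomal protein genes (84.4%) and 6.73% of 56698 listed genes. Members carry up to 30 annotated transcripts, and a gene with more starts has more chances of a match.

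The host genes are expressed over a wide range. In the authors' deposited tables, averaged over the 3 tables of a line, GAS5 was at a log2 CPM of 7.40 in CaSki and 7.90 in C-33A. SNHG29, which hosts C/D snoRNAs and was listed in the annotation as LRRC75A-AS1, was at 7.19 in CaSki and 8.72 in C-33A in the same deposited tables. SNHG1, a host of 6 annotated C/D snoRNAs, was at 7.13 in CaSki and 7.73 in C-33A. ZFAS1, host of C/D snoRNAs, was at 6.46 in CaSki and 7.06 in C-33A. These tables' averages include mimic and control samples together, so they describe the line and not a condition.

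Of the 25 members measured in all 6 tables, 23 had a lower average in CaSki than in C-33A (92%), against 59.6% of 12706 genes. The median difference, CaSki minus C-33A, was -0.89 on the log2 CPM scale for the members and -0.21 for all these genes. SNHG17 and SNHG26 were the 2 exceptions, with differences of 0.02 and 1.15 between the authors' deposited table averages. The difference was not tested, since each average rests on a table fitted within 1 line.

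SNHG14 and SNHG18 had the widest gaps between the lines, apart from SNHG32, in the authors' deposited tables. SNHG14, the host of the large snoRNA clusters at the Prader-Willi region on chromosome 15, averaged a log2 CPM of 2.21 in CaSki and 7.37 in C-33A. SNHG18 averaged 4.73 in CaSki and -1.01 in C-33A, so it counts as measured only in CaSki. SNHG5, another C/D host, lay at 5.08 in CaSki and 7.70 in C-33A.

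Set per kilobase of annotated exon, the order changed. SNHG6 had the highest level in CaSki, at 56.0 CPM per kilobase in CaSki and 96.7 in C-33A, computed from the authors' deposited tables. SNHG8, a short H/ACA host, had the highest level in C-33A, with 32.6 CPM per kilobase in CaSki and 161 in C-33A. SNHG29 stood at 38.9 CPM per kilobase in CaSki and 112 in C-33A, and GAS5 at 46.4 in CaSki and 66.0 in C-33A. SNHG14, with 43324 bases of annotated exon, stood at 0.107 CPM per kilobase in CaSki and 3.83 in C-33A. Annotated exon is summed over all transcripts of a gene, so a gene with many rare exons is given a level that is too low.

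**Figure D1:**
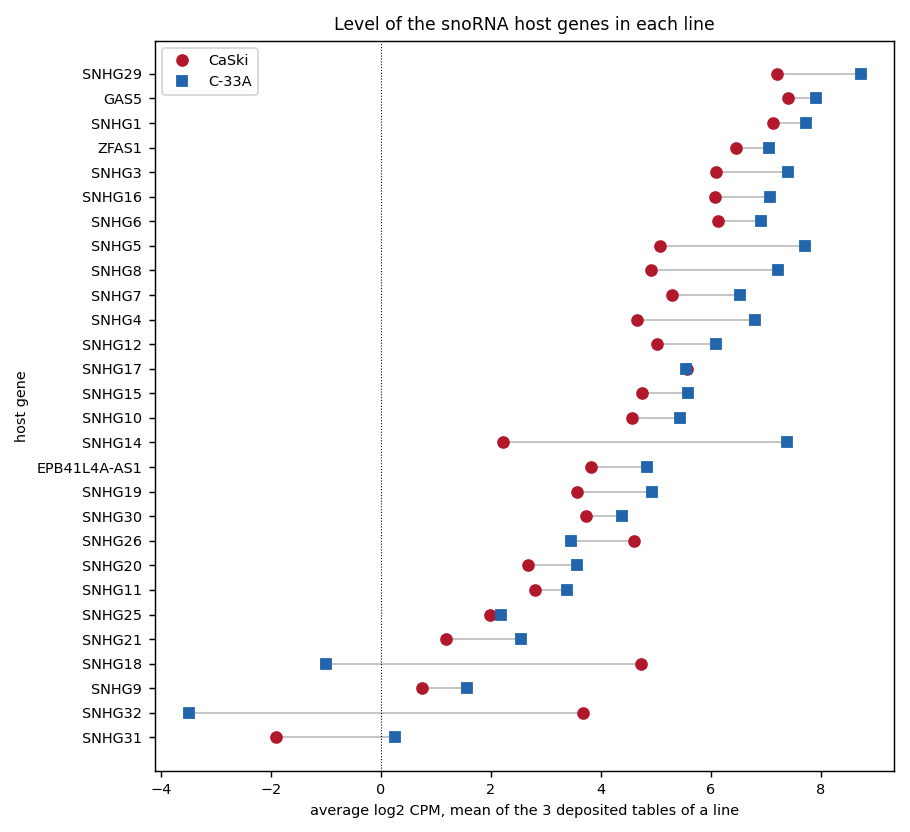
Average log2 CPM (x axis) of the 28 host genes measured in at least 1 table (y axis) in CaSki (red circles) and C-33A (blue squares) from the authors' deposited tables, as the mean over the 3 tables of a line. Most members lie lower in CaSki, with SNHG18, SNHG26 and SNHG32 among those higher there and SNHG14 at 2.21 in CaSki and 7.37 in C-33A. SNHG32 has fitted fold changes in CaSki that cannot be read as a size, and how many CaSki control samples hold its reads was not tested.

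In CaSki with the miR-124-3p mimic, the host genes were nearly all on the low side, and SNHG3, a host of H/ACA snoRNAs, was the only one that passed the test. It fell to 0.638 of the control level, with a log2 fold change of -0.65 (recovered SE 0.17, 95% interval -0.98 to -0.31, edgeR FDR 0.0478) in the authors' deposited table. A gene is called when the deposited FDR, adjusted over all 61217 listed genes, is under 0.05. By this rule 1 of 27 measured members fell and 0 rose, while 0.801% of all 15486 measured genes fell and 0.4% rose. At an unadjusted edgeR p under 0.05, 15 members were lower and 0 were higher, against 7.16% of all genes lower and 7.55% higher. The members' median log2 fold change was -0.36, against -0.01 for all measured genes, and 26 of 27 had a negative value (96.3%), against 52.0% of all genes.

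The call of SNHG3 with this mimic was near the threshold. Long and short transcripts had different fold changes in these tables, and with a trend on transcript length and GC content subtracted its log2 fold change was -0.63 with an adjusted p of 0.0794. With the median of all genes subtracted, the adjusted p was 0.0592. The members' median was -0.33 after the trend was subtracted.

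Besides SNHG3, other members had negative values in this comparison without passing the adjusted test. SNHG12, host of H/ACA and C/D snoRNAs, had -0.64 (SE 0.18, FDR 0.104) in the authors' deposited table. SNHG8 and SNHG19 had -0.52 and -0.51, and SNHG9 had -0.49 with an interval that included 0 (-1.17 to 0.18), in that deposited table. GAS5 had -0.61 (SE 0.19, FDR 0.207), SNHG16 had -0.46 (SE 0.14, FDR 0.197) and SNHG1 had -0.45 (SE 0.14, FDR 0.185) in that deposited table. When the edgeR p-values were adjusted over measured genes alone, SNHG1, SNHG3 and SNHG12 passed, 3 of 27 members against 1.39% of all measured genes lower. Over genes at a log2 CPM of 1 or more, GAS5 and SNHG16 passed as well, 5 members against 1.8%. SNHG29, ZFAS1, SNHG5 and SNHG6 had smaller values, of -0.18, -0.31, -0.24 and -0.32 in the authors' deposited table, none of them called. SNHG26 was the one positive member, at 0.16 (interval -0.15 to 0.47) in the deposited table. The lowest value was that of SNHG32, described separately because its fitted fold change cannot be read as a size.

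With the miR-124-3p mimic in C-33A, the median was of the same size and no member passed. Of 26 measured members 0 fell and 0 rose at the deposited edgeR FDR, while 0.517% of 15466 measured genes fell and 0.116% rose. At an unadjusted edgeR p under 0.05, 10 members were lower and 0 were higher, against 5.43% of all genes lower and 4.14% higher. The members' median was -0.36, against 0.00 as rounded for all genes (-0.0044), and 24 of 26 were negative (92.3%), against 50.8% of all genes. The lowest was SNHG9, a short H/ACA host, at -0.58 in the authors' deposited table, and the highest was SNHG31, at 0.23.

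Taken gene by gene in the authors' deposited table of C-33A with miR-124-3p, SNHG5 had -0.50 (SE 0.17, FDR 0.615) and GAS5 had -0.49 (SE 0.17, FDR 0.634). SNHG1 had -0.48, SNHG3 -0.46, SNHG16 -0.41 and ZFAS1 -0.39, each with an SE of 0.17, in that deposited table. SNHG6 had -0.34 and SNHG29 -0.23 in that deposited table. Of the 25 members measured in all tables, 23 were negative with this mimic in both lines. The exceptions were SNHG26, which was positive in CaSki, and SNHG11, which was 0.09 in C-33A in the authors' deposited table.

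In CaSki with the miR-23b-3p mimic, 2 of 27 measured members fell and 0 rose. SNHG3 fell to 0.671 of the control level, with a log2 fold change of -0.58 (SE 0.13, interval -0.82 to -0.33, edgeR FDR 0.000871) in the authors' deposited table. GAS5 fell to 0.679 of the control level, with -0.56 (SE 0.14, interval -0.84 to -0.28, edgeR FDR 0.00909) in the deposited table. Among 15476 measured genes 3.84% fell and 5.25% rose, and against that background 2 calls among 27 are no result about the set as a whole. At an unadjusted edgeR p under 0.05, 12 members were lower and 0 were higher, against 14% of all genes lower and 15.7% higher. The median was -0.24, against 0.00 as rounded for all genes (0.00045), and 22 of 27 members were negative (81.5%), against 49.9% of all genes.

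Both calls held when the trend over transcript length and GC content was subtracted. SNHG3 then had -0.57 with an adjusted p of 0.00214, and GAS5 had -0.52 with an adjusted p of 0.0277. Adjusted over measured genes alone, 8 members were lower, adding SNHG6, SNHG7, SNHG9, SNHG12, SNHG15 and SNHG18, against 7.29% of measured genes. Of these, SNHG7 had -0.42 in the authors' deposited table and -0.15 with the trend subtracted. Over genes at a log2 CPM of 1 or more the number was 7, with SNHG9 under that level, against 8.67%.

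Some abundant members had values near 0 with miR-23b-3p in CaSki. ZFAS1 stood at -0.01 (interval -0.23 to 0.21), SNHG16 at 0.02 (interval -0.19 to 0.23) and SNHG5 at 0.04 (interval -0.49 to 0.56) in the authors' deposited table. The intervals of ZFAS1 and SNHG16 leave out the values of -0.58 and -0.56 seen for SNHG3 and GAS5, although the difference between members was not tested. SNHG1 at -0.24, SNHG6 at -0.33 and SNHG29 at -0.16 lay between in the deposited table. The lowest value after SNHG32 was that of SNHG9, -0.94 (SE 0.32, FDR 0.0903), and the highest that of SNHG21, 0.30, in the authors' deposited table.

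In C-33A with miR-23b-3p, 0 of 26 measured members were called in either direction by edgeR, and 0 had an unadjusted p under 0.05. The background was 0.125% fallen and 0.0657% risen genes of 15222, and 2.3% lower and 1.93% higher at the unadjusted p. The median was -0.08, against 0.01 for all genes, with 21 of 26 members negative (80.8%), against 47.6%. The range ran from SNHG8 at -0.31 to SNHG16 at 0.17 in the authors' deposited table. GAS5 had -0.14 and SNHG3 had -0.08 in the deposited table, with intervals of -0.47 to 0.18 for GAS5 and -0.40 to 0.25 for SNHG3. SNHG1, SNHG5, SNHG29 and ZFAS1 were all between -0.02 and -0.01 in the authors' deposited table, and SNHG6 was at -0.10.

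With miR-218-5p in CaSki no member was called and the values lay close to 0. By edgeR's FDR 0 of 27 measured members were called, while 0.0848% of 15332 measured genes fell and 0.013% rose. At an unadjusted edgeR p under 0.05, 1 member was lower and 0 were higher, against 2.62% lower and 4.23% higher among all genes. That member was SNHG3, the lowest after SNHG32, at -0.36 (SE 0.15, interval -0.65 to -0.06, FDR 1) in the authors' deposited table. The median was -0.05, against 0.01 for all genes, with 17 of 27 members negative (63.0%), against 48.4%. GAS5 had -0.26, SNHG1 -0.07, SNHG6 -0.05, SNHG29 0.00 as rounded (0.0020), ZFAS1 0.07, SNHG16 0.19 and SNHG5 0.20 in the authors' deposited table. The highest was EPB41L4A-AS1, the one antisense-named H/ACA host, at 0.21 in the deposited table.

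In C-33A with miR-218-5p, 0 of 26 measured members were called by edgeR, against 0.273% of 15373 measured genes fallen and 0.026% risen. At an unadjusted p under 0.05, 1 member was lower and 0 were higher, against 3.61% lower and 1.44% higher. That member was SNHG8, at -0.36 (SE 0.16) in the authors' deposited table. The median was -0.14, while the median of all genes was -0.04, and 22 of 26 members were negative (84.6%), against 58.3%. SNHG6 had -0.23, SNHG3 -0.22, SNHG1 -0.21, GAS5 -0.19, SNHG29 -0.16, SNHG5 -0.13 and ZFAS1 -0.10, while SNHG16 had 0.24, in the authors' deposited table. SNHG21 was the lowest, at -0.47, and SNHG16 the highest in the deposited table.

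**Figure D2:**
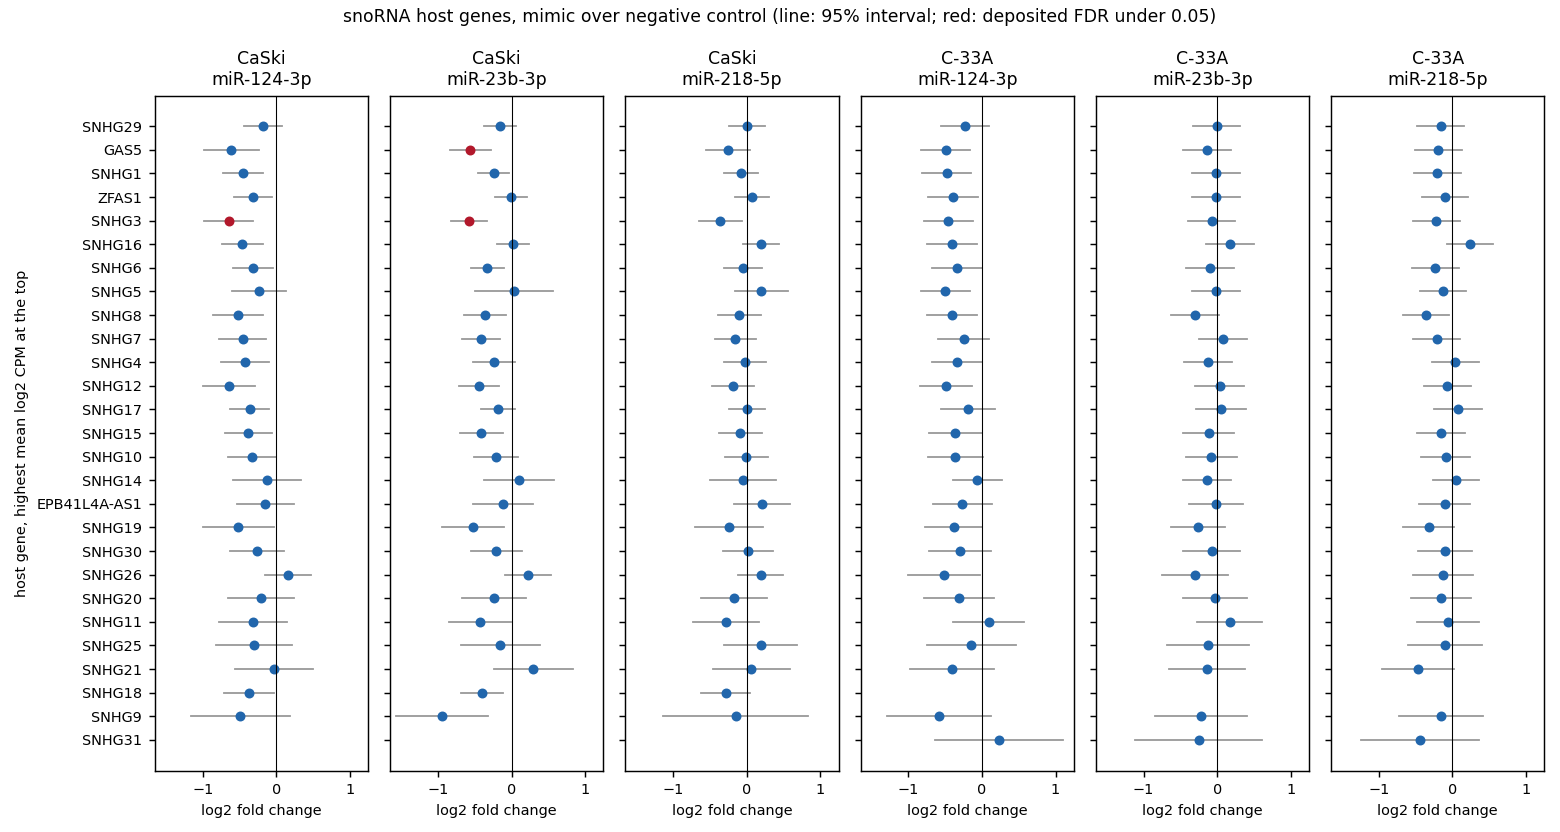
Log2 fold change of each host gene (y axis) for mimic over control in the 6 comparisons, from the authors' deposited tables; bars are recovered 95% intervals, red points are called, members not measured in a table have no point, and SNHG32 is left out. With miR-124-3p the points lie left of 0 in both lines for nearly all members, and the called members are SNHG3 in CaSki with miR-124-3p and SNHG3 and GAS5 in CaSki with miR-23b-3p.

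The 3 mimics of a line share controls, so their values are set side by side only. SNHG3 in CaSki had log2 fold changes of -0.65 with miR-124-3p, -0.58 with miR-23b-3p and -0.36 with miR-218-5p in the authors' deposited tables. GAS5 in CaSki had -0.61, -0.56 and -0.26 in the same order of mimics and the same deposited tables. SNHG16 in CaSki had -0.46 with miR-124-3p, 0.02 with miR-23b-3p and 0.19 with miR-218-5p in the deposited tables. In C-33A, the deposited tables gave SNHG16 -0.41, 0.17 and 0.24 in that order. None of these SNHG16 values was called, and differences between mimics were not tested.

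The difference between the lines was tested for each mimic on 25 members measured in both, as CaSki minus C-33A log2 fold change. For miR-124-3p 0 of 25 members passed a Benjamini-Hochberg adjusted p under 0.05, and 0 of 12970 genes did (0%). The members' median difference was -0.02. At an unadjusted p under 0.05 there was 1 member of 25, against 2.51% of all genes. It was SNHG26, with 0.16 in CaSki and -0.52 in C-33A in the authors' deposited tables, a difference of 0.68 (SE 0.30, normal test p = 0.0216, adjusted p = 1.00). The differences of SNHG3 and GAS5 with this mimic were -0.19 (interval -0.66 to 0.28) and -0.12 (interval -0.62 to 0.38).

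For miR-23b-3p 0 of 25 members passed, while 220 of 12905 genes did (1.7%). The median difference of the members was -0.15, against 0.01 for all genes. At an unadjusted p under 0.05 there were 3 members of 25, SNHG3, SNHG7 and SNHG12, against 15.6% of all genes, so their number is no more than the background. SNHG3 differed by -0.50 (SE 0.21, interval -0.91 to -0.09, normal test p = 0.0164, adjusted p = 0.198), with -0.58 in CaSki and -0.08 in C-33A in the authors' deposited tables. GAS5 differed by -0.42 (interval -0.85 to 0.01, adjusted p = 0.337). The calls of SNHG3 and GAS5 in CaSki are therefore not shown to differ from the values in C-33A. For miR-218-5p 0 of 25 members passed, and 0 of 12902 genes passed (0%). At an unadjusted p under 0.05 there were 0 members, against 1.56% of all genes.

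SNHG32, host of C/D snoRNAs on chromosome 6 (chr6:31834608-31839766, +, GRCh38), had fitted log2 fold changes of -9.24, -10.67 and -8.38 in CaSki, in the order miR-124-3p, then miR-23b-3p, then miR-218-5p, in the authors' deposited tables. None was called, with FDRs of 1, 0.576 and 1 and recovered SEs between 4.99 and 5.73. Its average log2 CPM was between 3.57 and 3.84 in the CaSki tables and between -3.61 and -3.37 in the C-33A tables, as deposited. It was 1 of 194, 207 and 192 measured genes with a fitted value under -7 in these CaSki tables, and 55 of them in each table lay on chromosome 6 within a few megabases of SNHG32. No gene of the C-33A tables was under that value, and 188 of these genes were shared by the 3 CaSki tables, which share their controls. Of the 188, 185 were below a log2 CPM of 0 in all C-33A tables. A value of this size with such an SE is no bound on a change. Its sign puts the fitted level on the side of the CaSki controls, and how many control samples hold the reads was not tested. All CaSki fold changes given here, those of SNHG3 and GAS5 among them, are set against the same controls. Whether this affects them was not tested. Without SNHG32, the members' median in CaSki was -0.35 with miR-124-3p, -0.24 with miR-23b-3p and -0.05 with miR-218-5p.

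The other genes of the pathway were grouped into lists by role. Like the host genes with SNHG32, some of these lists hold genes with very low fitted values in CaSki. In the authors' deposited table of miR-124-3p the lowest were RPS18 at -17.30 among ribosomal protein genes and EEF1D at -9.88 among other TOP genes. ZNHIT3 had -11.79 among snoRNA protein partners and MIR22HG -10.74 among long non-coding RNAs outside the rule, in that deposited table. All were kept in the list medians and counts. Ribosomal protein genes, the largest TOP family, had a median log2 fold change of -0.38 in CaSki with miR-124-3p. Of 77 genes 74 were negative, against 52.0% of all measured genes. By edgeR 0 of 77 were called, against 0.801% of all measured genes fallen. At an unadjusted p under 0.05, 14 were lower, against 7.16% of all measured genes. In C-33A with miR-124-3p their median was -0.32, with 0 of 74 called by edgeR. At an unadjusted p under 0.05, 24 were lower there, against 5.43% of all genes. In CaSki with miR-23b-3p their median was -0.54, and 30 of 77 fell and 1 rose, against 3.84% of all measured genes fallen and 5.25% risen. In C-33A with miR-23b-3p their median was 0.00 as rounded (-0.0042), with 0 of 74 called by edgeR. At the unadjusted p 3 were lower and 1 was higher there, against 2.3% and 1.93% of all genes. The lowest p-values among the falls were those of RPS25 at -0.92 (FDR 3.54e-07) and RPL15 at -0.85 (FDR 8.60e-07) in the authors' deposited table of CaSki with miR-23b-3p. The one rise was RPL26, at 0.61 (FDR 0.00248) in that deposited table. In CaSki with miR-218-5p the ribosomal protein genes had a median of -0.23 while the host genes had -0.05. Of the 77 ribosomal protein genes 0 were called by edgeR. At the unadjusted p 1 was lower and 1 was higher, against 2.62% and 4.23% of all genes.

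The median of 20 other TOP genes measured in CaSki was -0.29 with miR-23b-3p. Among these 4 fell and 0 rose, against 3.84% of all measured genes fallen and 5.25% risen. The 4 that fell were FAU at -0.67, RACK1 at -0.55, EIF3E at -0.50 and EIF4B at -0.42 in the authors' deposited table. They are a ribosomal fusion protein, a ribosome-bound scaffold and a pair of translation initiation factors. With miR-124-3p 0 of 20 were called by edgeR, with 4 lower and 0 higher at an unadjusted p under 0.05, and their median was -0.24. At that p 7.16% of all measured genes were lower and 7.55% higher. In C-33A with miR-124-3p 17 of 19 were negative, with a median of -0.21, against 50.8% of all measured genes negative. There 0 of 19 were called by edgeR, and 3 were lower and 0 higher at that p, against 5.43% and 4.14%.

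Of 16 protein partners of snoRNAs (snoRNP proteins and assembly factors) 3 fell and 1 rose with miR-23b-3p in CaSki, where 3.84% of all measured genes fell and 5.25% rose. NOP10 at -0.62 and NHP2 at -0.63, both of the H/ACA core, and FBL at -0.43, the C/D methyltransferase fibrillarin, fell in the authors' deposited table. ZNHIT6, a C/D assembly factor, rose by 0.58 in that deposited table. Of NHP2, FBL and ZNHIT6 none passed once the trend was subtracted, with adjusted p of 0.0549, 0.0774 and 0.167. With miR-124-3p in CaSki 0 of 16 were called by edgeR. At the unadjusted p 3 were lower and 0 higher, against 7.16% and 7.55% of all genes. Their median there was -0.18, with 12 of 16 negative, against 52.0% of all genes. In C-33A with miR-124-3p their median was -0.25, and 15 of 15 measured were negative, against 50.8% of all genes. There 0 were called by edgeR, and 2 were lower and 0 higher at the unadjusted p, against 5.43% and 4.14%.

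Decay factors and decay targets were set beside the hosts because spliced host RNAs are known decay substrates. Of 19 nonsense-mediated decay factors in CaSki with miR-23b-3p, 2 rose and 0 fell, where 5.25% of all measured genes rose. CASC3, an exon junction component, had 0.58 (FDR 0.0022) and SMG1, the kinase of UPF1, had 0.46 (FDR 0.0101) in the authors' deposited table. SMG1, whose transcript is long, had 0.11 and an adjusted p of 1 with the trend subtracted. Of 7 decay readout mRNAs, ATF4 fell by 0.63 (FDR 0.000113) in the deposited table, and all 7 were negative in CaSki with this mimic. Of all measured genes there 3.84% fell and 49.9% were negative. The readout mRNAs' median in C-33A with miR-23b-3p was 0.17 over 6 genes, 0 of them called by edgeR. At the unadjusted p 2 of these were higher, against 1.93% of all genes. With miR-124-3p the decay factors' median was 0.02 in CaSki and 0.06 in C-33A. The decay readout mRNAs were all negative with that mimic, 7 of 7 in CaSki with a median of -0.22 and 6 of 6 in C-33A with a median of -0.36. None of them was called by edgeR. At an unadjusted p under 0.05, 2 in CaSki and 3 in C-33A were lower, against 7.16% and 5.43% of all genes.

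Hosts that code for protein, and long non-coding RNAs outside the rule, had medians nearer to 0 with miR-124-3p. The median of 18 protein-coding snoRNA hosts was -0.11 in CaSki and -0.08 in C-33A with miR-124-3p, and -0.12 in CaSki and 0.04 in C-33A with miR-23b-3p. With miR-124-3p 12 of 18 were negative in CaSki and 11 of 18 in C-33A. At an unadjusted edgeR p under 0.05, 5 were lower and 2 higher in CaSki, against 7.16% and 7.55% of all genes. In C-33A 2 were lower and 2 higher at that p, against 5.43% and 4.14%. With miR-23b-3p in CaSki 1 of these hosts fell, RCC1, and 1 rose, CHD8, a chromatin remodeller, at 0.56 (FDR 0.00107) in the authors' deposited table. Of all measured genes 3.84% fell and 5.25% rose, so these counts are near the background. CHD8 had 0.30 and an adjusted p of 0.295 with the trend subtracted. The long non-coding RNAs outside the rule had medians of 0.01 in CaSki (22 genes) and -0.04 in C-33A (19 genes) with miR-124-3p. At the unadjusted p 0 of them were lower and 1 was higher in each line with that mimic. With miR-23b-3p their medians were 0.21 in CaSki and 0.04 in C-33A. In CaSki 2 of them rose with miR-23b-3p, where 5.25% of all measured genes rose. These were NEAT1 at 0.65 and TUG1 at 0.47 in the authors' deposited table, and neither passed with the trend subtracted. DANCR, the 1 measured gene of 2 other non-coding snoRNA hosts, had -0.08 in CaSki and -0.37 in C-33A with miR-124-3p in the deposited tables. Only its C-33A value had an unadjusted p under 0.05. Outside CaSki with miR-23b-3p, no gene of the lists other than the host genes was called by edgeR in any comparison. At an unadjusted p under 0.05 each list then had 0 to 24 genes lower and 0 to 2 higher. In those comparisons 2.3% to 7.16% of all measured genes were lower and 1.44% to 7.55% higher at that p. The lists were described by counts and medians, and the difference between the host genes and another list was not tested.

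**Figure D3:**
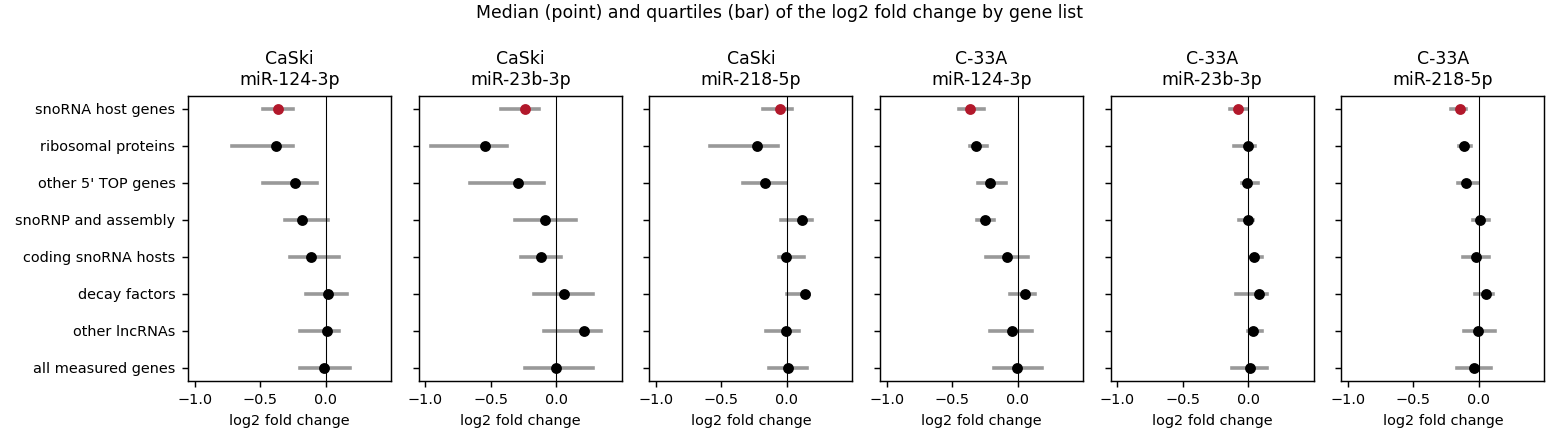
Median log2 fold change (x axis) of each gene list (y axis) in the 6 comparisons, with bars from the first to the third quartile of its measured genes, computed from the authors' deposited tables. Very low fitted values in CaSki, such as those of SNHG32 and RPS18, were kept in the lists. Host genes lie beside the ribosomal protein genes with miR-124-3p in both lines, at -0.36 and -0.38 in CaSki, while with miR-23b-3p the ribosomal protein genes lie lower in CaSki and at 0 in C-33A.

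Within the host genes, properties that the rule did not use were compared as descriptions, without SNHG32. The 15 members with a pyrimidine run at some annotated start had a median of -0.42 in CaSki with miR-124-3p, and the 11 without had -0.27. In C-33A with that mimic 14 members with a run had -0.40 and 12 without had -0.31. In CaSki with miR-23b-3p the medians were -0.33 with a run and -0.20 without. In C-33A with miR-23b-3p the order turned, with -0.05 for members with a run and -0.10 for those without. The ranges overlapped in each of these comparisons.

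By snoRNA class, 9 H/ACA hosts had a median of -0.42 and 11 C/D hosts -0.31 in CaSki with miR-124-3p. In C-33A with that mimic the order was the other way, at -0.30 for 10 H/ACA hosts and -0.39 for 10 C/D hosts. In CaSki with miR-23b-3p all 9 H/ACA hosts were negative, with a median of -0.41, and 7 of 11 C/D hosts were negative, with a median of -0.16. Members whose nested genes are not named SNORD or SNORA (SNHG10, SNHG20 and SNHG21 hold SCARNA genes) and members with both classes entered neither class. GAS5 also entered neither, because the GENCODE 29 annotation used here places no snoRNA gene inside it. This does not show that GAS5 hosts none, and the class medians leave it out.

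Seed matches were counted to describe the members' sequences. A match to bases 2 to 8 of miR-23b-3p (AATGTGA in the transcript, sense strand) was found in the longest transcript of 4 of 28 members (14.3%), GAS5, SNHG1, SNHG5 and SNHG14, against 29.05% of 17455 measured genes. For miR-218-5p (AAGCACA) it was found in 6 of 28 members (21.4%), EPB41L4A-AS1, SNHG12, SNHG14, SNHG16, SNHG20 and SNHG21, against 26.8%. Longer transcripts have more matches, and lengths were not matched in these shares. Some of the matching sites are shown as examples, with 9 bases before and after, and capitals mark the match. Those of SNHG1, SNHG14, EPB41L4A-AS1 and SNHG20 are not shown, nor is another miR-23b-3p site in 2 of 29 GAS5 transcripts.
GAS5, miR-23b-3p: aaaagttaaAATGTGActgagaagg
SNHG5, miR-23b-3p: tgaatgtcgAATGTGActgactagc
SNHG12, miR-218-5p: actgagaaaAAGCACAccagctatt
SNHG16, miR-218-5p: gaaatgagaAAGCACAgttggtgcc
SNHG21, miR-218-5p: gctccctgaAAGCACAaagcagtta
The matches shown lie at chr1:173864567-173864573 (-), in 5 of 29 GAS5 transcripts, and at chr6:85677818-85677824 (-), in 12 of 23 SNHG5 transcripts. They lie at chr1:28581191-28581197 (-), in 14 of 17 SNHG12 transcripts, at chr17:76558510-76558516 (+), in 4 of 8 SNHG16 transcripts, and at chr15:82754646-82754652 (+), in all 5 SNHG21 transcripts.

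The member with the second call, GAS5, thus holds a miR-23b-3p match, while SNHG3 holds none in its longest transcript. SNHG5 holds the match and stood at 0.04 in CaSki in the authors' deposited table. With any transcript searched, the 6 members with a miR-23b-3p match had a median of -0.08 in CaSki, and the 20 without had -0.29. In C-33A these medians were -0.01 with a match and -0.09 without. For miR-218-5p the medians in CaSki were 0.01 for 6 members with a match and -0.06 for 20 without, and in C-33A -0.09 with and -0.16 without. A match is a run of letters and no more.

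Fold changes in CaSki varied with transcript length across all genes. With miR-23b-3p the median was -0.18 for 2279 genes whose longest transcript has 1000 to 2000 bases and 0.27 for 1143 genes of 8000 bases or more. Host transcripts are mostly short, and 26 of the 27 members measured in CaSki have a longest transcript below 4000 bases. Below 1000 bases the 6 members had a median of -0.35, against -0.02 for 1691 genes. In the 1000 to 2000 base range the 10 members had a median of -0.21, close to the -0.18 of all genes. In the 2000 to 4000 base range the 10 members had -0.24, against -0.07 for 5236 genes. With miR-124-3p the 6 members below 1000 bases had -0.41, against -0.03 for all genes, and the other 2 ranges gave -0.32 for members against -0.11 for all genes, and -0.40 for members against -0.06 for all genes. In C-33A with miR-124-3p the values were -0.40 for 6 members below 1000 bases against -0.11 for all genes, then -0.39 for 9 members against -0.07 for all genes, and -0.33 for 10 members against -0.01 for all genes.

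**Figure D4:**
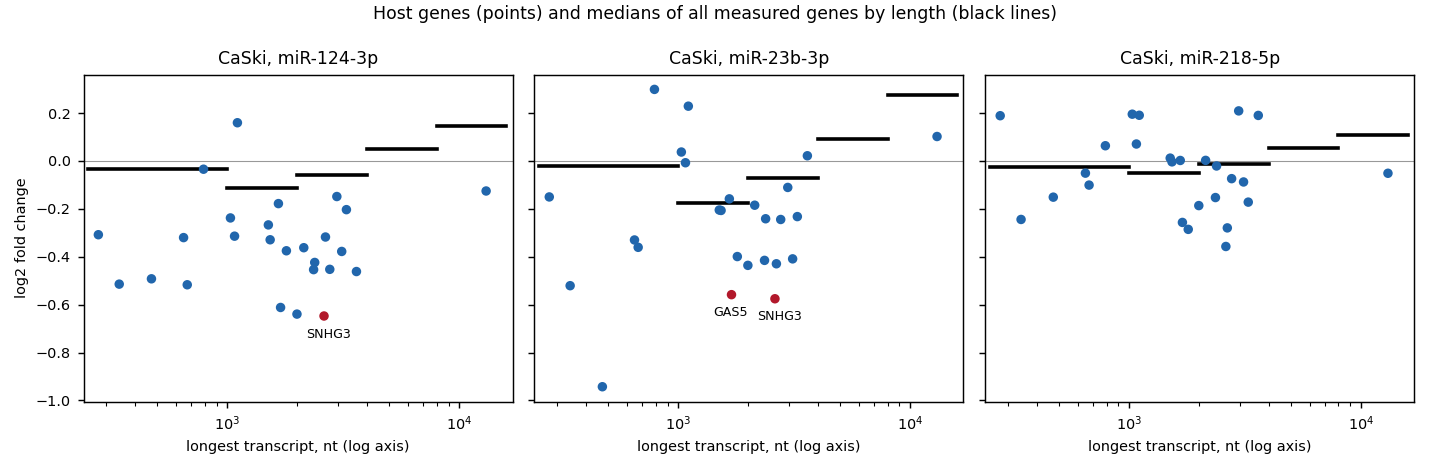
Log2 fold change (y axis) against the longest annotated transcript in bases (x axis, log scale) for host genes in CaSki with each mimic; points are members without SNHG32, red points are called members, and black lines are medians of all measured genes in 5 length ranges. With miR-124-3p most points lie below the line of their range, and with miR-23b-3p the line itself runs from -0.18 at 1000 to 2000 bases to 0.27 at 8000 bases and more.

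The nested snoRNAs are listed as genes of their own. Mature snoRNAs have no poly(A) tail, so oligo(dT) selection leaves few of their reads. Of 140 listed snoRNA genes inside members, none of them inside GAS5 by the annotation used, 17 to 23 were measured in a table. The one that passed was SNORD104, inside SNHG25, in CaSki with miR-23b-3p, 1 of 18 measured there, which is near the 3.84% of all measured genes that fell. It had a log2 fold change of -1.12 (FDR 0.00826), while SNHG25 had -0.15 (SE 0.27) in the authors' deposited table. The same snoRNA had -0.79 with miR-124-3p and -0.29 with miR-218-5p in CaSki, and between -0.44 and -0.32 in the 3 deposited tables of C-33A. Its sequence is shown because it is the only nested gene called; it lies at chr17:64146083-64146152 (+), and capitals mark the box C and box D motifs.
SNORD104: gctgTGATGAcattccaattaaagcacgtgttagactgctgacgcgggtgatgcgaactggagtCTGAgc

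SNORA73A and SNORA73B, the H/ACA snoRNAs inside SNHG3, were not called in any table. In CaSki they had 0.03 and -0.01 with miR-124-3p, and -0.17 and -0.23 with miR-23b-3p, in the authors' deposited tables. The host had -0.65 and -0.58 in the same tables. The difference between host and snoRNA was not tested, and reads of a snoRNA and of its host intron cannot be told apart in these tables.

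SNHG3 lies at chr1:28505980-28510892 (+) and shares 242 bases of exon with RCC1 on the same strand (5.92% of its exon). RCC1, a chromatin-bound exchange factor that itself is grouped with the snoRNA hosts, fell in CaSki with miR-23b-3p, with -0.51 (FDR 0.00312), and had -0.49 (FDR 0.343) with miR-124-3p in the authors' deposited tables. Its level was close to that of SNHG3, at a log2 CPM of 6.73 for RCC1 and 6.14 for SNHG3 in the deposited table of CaSki with miR-23b-3p. Whether reads of one were counted to the other was not tested. GAS5 lies at chr1:173863900-173868882 (-) and shares 42 bases of exon with GAS5-AS1 on the other strand. No source used here states the strand setting of the counting, so reads of members that overlap a gene on the other strand are uncertain. Among measured members such overlaps cover 49.6% of the exon of EPB41L4A-AS1, 34.1% of SNHG21, 30.6% of SNHG16, 29.3% of SNHG6 and 25.2% of SNHG7. SNHG21 also shares 72.9% of its exon with another listed gene on the same strand.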

How the data were processed

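RNA enriched on oligo(dT) beads was sequenced from 23 samples in 8 groups. The submitters' processing notes name GRCh38 (hg38), and they list STAR 2.7.10b, FastQC 0.73, edgeR 3.36.0 and featureCounts 2.0.3 as tools. Per the file headers, each of the 6 deposited tables gives an F score, a p-value and its FDR for 61217 genes, beside the log2 fold change and the average level in log2 CPM. Recomputing Benjamini-Hochberg over all listed genes gave the deposited FDR. Counts per sample were not used here, so no count model was refitted, no library size is given, and the deposited edgeR test is the test of each gene in place of the count test foreseen.

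Standard errors were recovered by dividing each log2 fold change by the normal quantile of its p-value, and 95% intervals are 1.96 times that on either side. Solving the deposited F and p for the denominator degrees of freedom gave medians of 25.7 to 38.2 in CaSki and of at least 183651 in C-33A, so C-33A p-values rest on a spread pooled over genes. Measured means an average log2 CPM of 0 or more, and a gene was called at a deposited FDR under 0.05. Differences between lines were tested with a normal test of the 2 fold changes and Benjamini-Hochberg adjustment. The trend on length and GC content was a robust spline over measured genes (statsmodels 0.14.6), using the longest GENCODE 29 transcript of GRCh38, and it was available for over 96% of measured genes. That release may differ from the authors' annotation.

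Values in all 6 tables are given for called members and for the 8 members with the highest average level, and other members by range and count, with the lowest and highest of each comparison named. Called genes of the other lists were named up to 4 per list. Uncalled genes of these lists were named only for very low fitted values in CaSki or, for DANCR, as its list's only measured gene. SNHG12, SNHG26 and other members were chosen for mention after their values were seen. The members and lists were chosen with earlier results of these data known. Alternatives were other FDR thresholds, adjustment over measured genes, level filters, subtraction of the trend or of the median, other seed and start rules, and SNHG32 left out. The fit scripts were tested on simulated data. The simulated p-values came from the same normal formula, so the simulation does not check the recovery of SEs from the deposited F tests. Scripts ran in Python 3.11.15.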

Additional observations from a re-analysis of the deposited data

How the results depend on the processing

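The medians of the members kept their sign in all 30 alternatives run, and the 9 alternatives for the line differences also called 0 members. In CaSki with miR-124-3p the number of members that fell was 1 as reported, 0 at an FDR under 0.01, 3 and 5 when adjusted over genes at a log2 CPM of at least 0 and at least 1, 0 with the trend subtracted and 0 with the median subtracted, the last 2 settings having been added after seeing the data. In CaSki with miR-23b-3p it was 2 as reported, 5 at an FDR under 0.10, and 8 and 7 under the same narrower adjustments. The narrower adjustments test fewer genes, and the cause of the other changes was not tested. A seed match of bases 2 to 7 was found in 13 members for miR-23b-3p and in 13 for miR-218-5p, and bases 2 to 8 followed by A in 0 for miR-23b-3p and in 1 for miR-218-5p, all in the longest transcript. In other transcripts, GAS5, SNHG14 and SNHG17 hold a miR-23b-3p match followed by A. A pyrimidine run was found in 12 members within 5 bases of the RefSeq start and in 15 at any GENCODE start, against 7 at the RefSeq start itself. Leaving out single replicates was not run, because values per sample were not used here. No paired analysis was possible because the tables hold 1 fitted value per comparison. Depth limits the members near a log2 CPM of 0, such as SNHG9 and SNHG31, whose intervals are wide.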
